A study of Homo sapiens with 6 samples.

Results

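The annexin genes described here are the 8 family members ANXA1, ANXA2, ANXA3, ANXA4, ANXA5, ANXA6, ANXA7 and ANXA11, taken by symbol from a table of 26372 genes, and all 8 passed the filter on low values that left 13434 genes for testing. The table covers SH-SY5Y cells, a human neuroblastoma line in which noradrenergic cells that resemble neurons and mesenchymal cells that spread on the dish can coexist. The 3 knockdown libraries came from cells carrying an shRNA, a short hairpin RNA that silences a gene, directed at TDP-43, the RNA-binding protein encoded by TARDBP. The 3 control libraries came from cells with a control shRNA, and both shRNAs were delivered by lentivirus. The treatment protocol describes puromycin selection for the stable knockdown cells. Each arm has 1 name in the labels (shT2 and shNC3), which do not say whether it is a clone or a mixed population, nor whether its 3 libraries are separate cultures. The p-values therefore rest on a spread between libraries that may be technical.

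Annexins are cytosolic proteins that bind phospholipid membranes when calcium rises, through a core of repeated domains. Each member has its own N-terminal tail, which carries binding sites for partners such as S100 proteins. They are known for sealing torn plasma membranes, organising membrane and actin, exocytosis and endosome traffic, and ANXA11 is also an amyotrophic lateral sclerosis gene whose protein tethers RNA granules to lysosomes. In neuroblastoma lines, high ANXA1 and ANXA2 mark adherent, mesenchymal cells more than neuron-like ones.

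Levels are FPKM, fragments scaled to transcript length and sequencing depth, a unit that corrects for transcript length and so allows levels of different genes to be set side by side. TARDBP stood at 42.8% of its control mean (49.5 ± 1.49 FPKM with the control shRNA, 21.2 ± 0.598 with the TDP-43 shRNA, SD, n = 3 each). Depth, read from the steps between low values, ran from 52.8% to 94.4% of the deepest library in the knockdown and from 84.2% to 100% in the control, and read numbers are unknown. Of 12 fixed mesenchymal markers 10 were called lower in the knockdown, where 35.9% of all tested genes were called lower and 30.5% higher. TWIST1, a mesenchymal transcription factor, was called higher (294 ± 7.94 against 111 ± 3.27 FPKM) and SNAI2 did not pass (10.4 ± 0.837 against 10.7 ± 0.240 FPKM). The summed level of the 12 was 685 to 695 FPKM there against 2595 to 2627 in the control, with none at 0 in every library of a group. Of 12 tested noradrenergic markers 11 were called higher, with a summed level of 1122 to 1248 against 568 to 582 FPKM. The remaining one, DBH, was called lower (31.29 ± 2.97 against 38.15 ± 0.942 FPKM, log2 fold change -0.28). TH, the enzyme that starts catecholamine synthesis, was listed at 0 in all 6 libraries. All 3 tested Schwann and glial markers were called higher, with a sum of 23.9 to 26.2 against 7.94 to 8.93 FPKM. Of 3 blood markers the 1 tested, CD68, was called lower (sums 2.15 to 2.90 against 14.0 to 15.2 FPKM), HBB was listed at 0 in all 6 libraries and PTPRC had means of 0.0357 (knockdown) and 0.0839 FPKM (control). Both tested epithelial markers, KRT8 and KRT18, were called lower (list sums 10.8 to 11.4 against 90.5 to 97.2 FPKM). Under the filter, CDH1 had means of 0.00623 (knockdown) and 0.00451 FPKM (control). EPCAM, also not tested, went the other way, with means of 0.8485 (knockdown) and 0.2853 FPKM (control) and ranges that did not overlap. The part of these shifts in the annexin results was not tested, and in bulk RNA fewer cells of a type and less RNA per cell cannot be told apart.

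All 8 annexin genes were called lower in the knockdown, where 35.9% of all tested genes were called lower and 30.5% higher, and none was called higher. Calls are from limma on log2(FPKM + 1), with Benjamini-Hochberg adjustment over all 13434 genes and a threshold of 0.05. For each of the 8 genes the 3 knockdown values lay under the 3 control values, as was so for 38.2% of tested genes. The summed FPKM of the 8 genes was 850, 873 and 854 in the control libraries and 125.4, 122.9 and 132.5 in the knockdown libraries, a 6.77-fold difference of the means. Without ANXA2, which held most of that sum, it was 276 ± 6.77 FPKM against 65.4 ± 2.29 (4.22-fold). The median log2 fold change of the 8 genes was -1.55, beside -0.020 for all tested genes, and log2 fold changes on this scale understate the change of low genes. An exact permutation test gave p = 0.1 for every member, the smallest that 3 against 3 libraries allow.

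**Figure D1:**
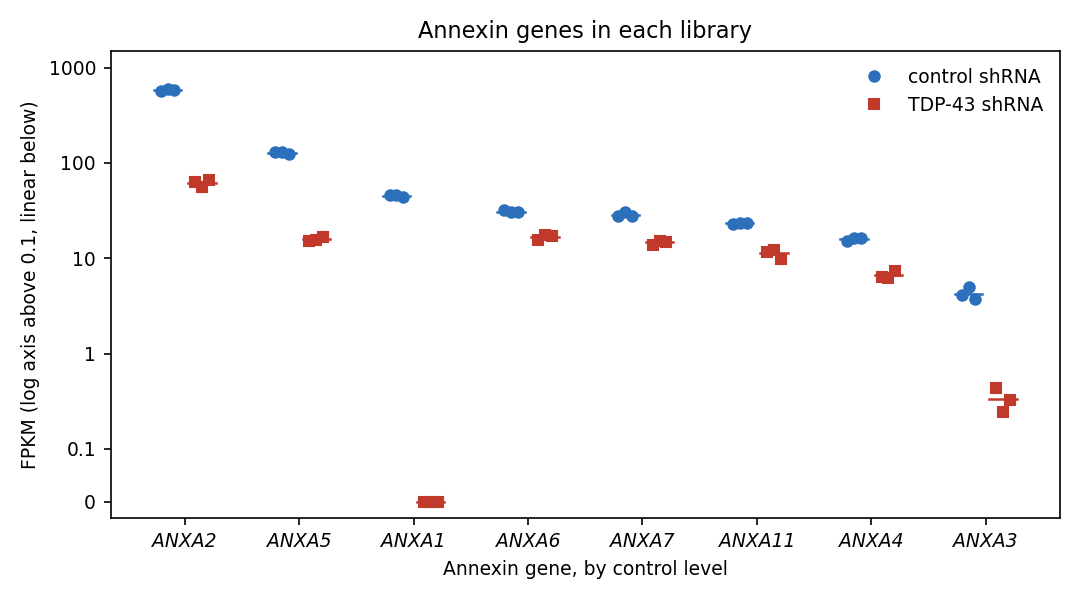
FPKM of the 8 annexin genes in the 3 control (circles) and 3 TDP-43 shRNA (squares) libraries, on a log axis that is linear under 0.1, with a short line at each mean. The groups lie apart for every gene, from ANXA2 (583 against 61.5 FPKM) to ANXA3 (4.25 against 0.337), and ANXA1 is at 0 in the knockdown libraries.

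ANXA2, which pairs with S100A10 at the plasma membrane and binds plasminogen and its activator there, was the most abundant annexin. It lies on chromosome 15 (60347134 to 60402883, minus strand, GENCODE v29 on GRCh38). It stood at 574, 591 and 585 FPKM in the control libraries and at 62.6, 56.1 and 65.8 in the knockdown libraries. The control values had a coefficient of variation of 1.43%, and the knockdown mean was 10.5% of the control mean (61.5 ± 4.96 against 583 ± 8.36 FPKM, SD, n = 3). On the log2(FPKM + 1) scale it fell by 3.23 (standard error 0.056, limma adjusted p = 6.69e-10), and 94 tested genes had a more negative value. ANXA2 ranked 110th of all genes by control level and 813th by knockdown level. Of the 110 tested genes at its control level or above, 8 had a knockdown mean of at most 25% of the control, as did 4.19% of all tested genes.

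ANXA1, the glucocorticoid-induced inhibitor of phospholipase A2 that acts outside the cell on formyl peptide receptors, lies on chromosome 9 (73151757 to 73170393, plus strand). It was listed at 46.2, 46.5 and 43.5 FPKM in the control libraries and at 0 in the 3 knockdown libraries (limma adjusted p = 6.03e-11). No fold is given, since an exact 0 in this table can be a failed estimate. ANXA1 had the second highest control level among the 50 genes that combine a 0 in each knockdown library with at least 1 FPKM in each control library. In the control it was the third most abundant annexin.

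ANXA5, which coats membranes that expose phosphatidylserine and is used in the laboratory to stain dying cells, lies on chromosome 4 (121667955 to 121697113, minus strand). It stood at 129, 131 and 124 FPKM in the control libraries and at 15.1, 15.4 and 16.8 in the knockdown libraries. The knockdown mean was 12.4% of the control mean (15.8 ± 0.886 against 128 ± 3.68 FPKM), and the log2 fold change was -2.94 (standard error 0.050, limma adjusted p = 6.04e-10). ANXA3, a less abundant member linked to vessel growth and to myeloid cells, lies on the same chromosome (78551519 to 78610451, plus strand). It stood at 4.12, 4.94 and 3.69 FPKM in the control libraries and at 0.439, 0.246 and 0.325 in the knockdown libraries. Its knockdown mean was 7.91% of the control mean. On the log2(FPKM + 1) scale ANXA3 fell by 1.97 (standard error 0.111, limma adjusted p = 7.87e-07), less than ANXA5 because the pseudocount of 1 weighs more at its level. Its 3 knockdown values had the widest relative spread of the 7 genes with values above 0 there (28.8% as a coefficient of variation, against 5.21% to 10.5% for the others).

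The other 4 annexins kept between 42.2% and 54.0% of their control level. ANXA4, an annexin of epithelial and secretory membranes, lies on chromosome 2 (69644425 to 69827100, plus strand) and stood at 15.0, 16.4 and 16.3 FPKM in the control libraries against 6.42, 6.27 and 7.43 in the knockdown libraries. Its log2 fold change was -1.14 (limma adjusted p = 1.71e-06). AAK1, a gene on the opposite strand that overlaps ANXA4, had a control mean of 16.1 FPKM and a knockdown mean of 8.16, and the sources used here do not give whether counting used strand. ANXA6, the member with a doubled core, known from cholesterol and endosome traffic, lies on chromosome 5 (151100712 to 151157882, minus strand). It stood at 31.9, 30.3 and 30.6 FPKM in the control libraries and at 15.4, 17.4 and 17.2 in the knockdown libraries, and its log2 fold change of -0.85 was the smallest of the family (limma adjusted p = 2.55e-06).

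ANXA7 and ANXA11 carry long N-terminal tails that bind penta-EF-hand proteins such as ALG-2, and both lie on the long arm of chromosome 10. ANXA7 (73375101 to 73414076, minus strand), first known from the fusion of secretory granules, stood at 27.6, 30.6 and 27.9 FPKM in the control libraries and at 13.8, 15.2 and 15.0 in the knockdown libraries. Its log2 fold change was -0.92 (limma adjusted p = 1.96e-06). ANXA11 (80150889 to 80205572, minus strand) stood at 22.7, 23.2 and 23.6 FPKM in the control libraries and at 11.6, 12.2 and 9.93 in the knockdown libraries. Its log2 fold change was -0.99 (standard error 0.073, limma adjusted p = 4.50e-06).

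The size of the fall separated the 7 genes with values above 0 in every library into 2 sets that did not overlap in any pair of libraries. Dividing each control value by each knockdown value gives 9 ratios per gene. They ran from 8.42 to 20.1 for ANXA3, from 8.72 to 10.5 for ANXA2 and from 7.35 to 8.63 for ANXA5. For the other set they ran from 2.02 to 2.62 for ANXA4, from 1.86 to 2.38 for ANXA11, from 1.81 to 2.22 for ANXA7 and from 1.74 to 2.07 for ANXA6. Within the second set these ranges overlap. Taken within each library, ANXA4 stood at 0.471, 0.543 and 0.532 of the ANXA6 level in the control libraries and at 0.417, 0.359 and 0.431 in the knockdown libraries, and its ratio to ANXA7 likewise did not overlap between the groups (means 0.555 and 0.458). The ratios of the other 4 of these 6 pairs overlapped, and the exact permutation test gave p = 0.1 for each of the 2 pairs with ANXA4 (0.3 after adjustment over the 6 pairs). A knockdown mean at or under 12.5% of the control was found for 2.37% of tested genes, and ANXA2, ANXA3 and ANXA5 were among them. The sets were drawn after the values were seen.

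**Figure D2:**
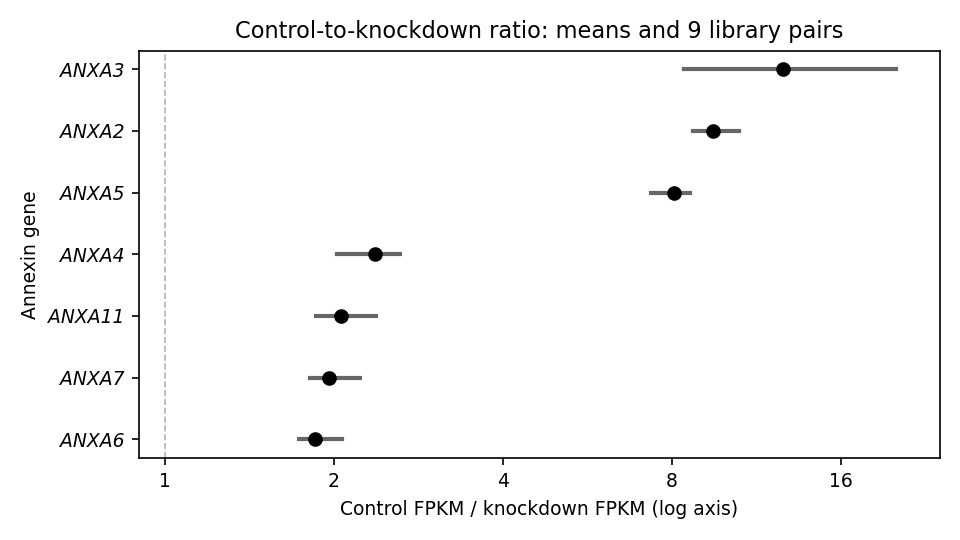
Control FPKM divided by knockdown FPKM for the 7 annexin genes with values above 0 in every library (log axis). Points are ratios of the means and bars span the 9 pairs of libraries, with ANXA3, ANXA2 and ANXA5 at 7.35 or more and the other 4 genes at 2.62 or less. ANXA1 is not drawn because it is listed at 0 in the knockdown.

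**Figure D3:**
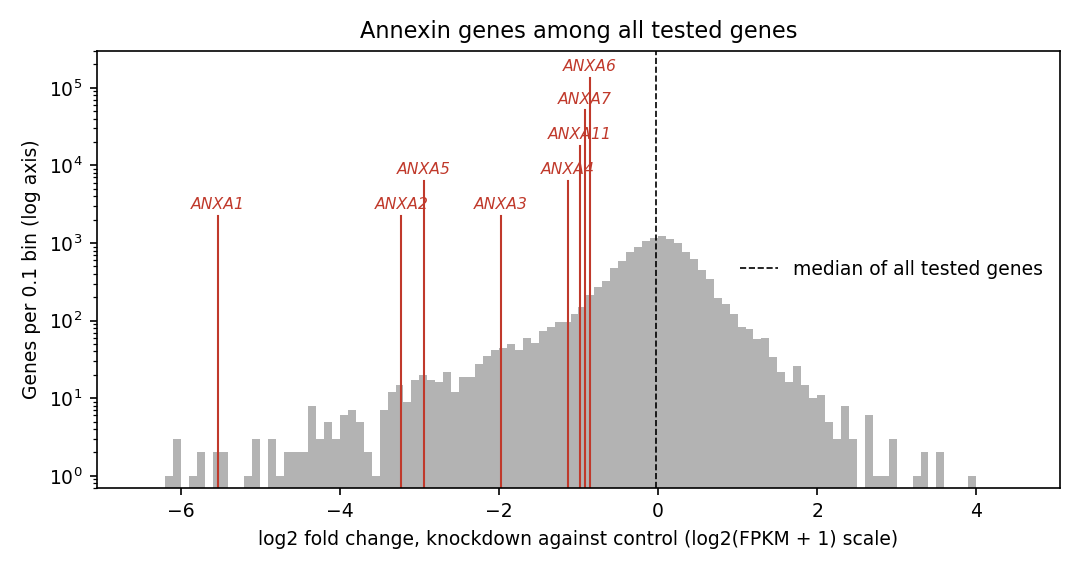
Histogram of log2 fold changes of all tested genes on the log2(FPKM + 1) scale (counts on a log axis), with a red line at each annexin gene and a dashed line at the median of all genes (-0.020). All 8 annexins lie at -0.85 or further left, and 3 tested genes outside the plotted range are not drawn.

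The order of the annexins by level changed with the knockdown. In the control it ran ANXA2, ANXA5, ANXA1, ANXA6, ANXA7, ANXA11, ANXA4 and ANXA3, and among neighbours in this order the ranges of ANXA6 and ANXA7 alone overlapped. In the knockdown it ran ANXA2, ANXA6, ANXA5, ANXA7, ANXA11, ANXA4, ANXA3 and ANXA1. There ANXA6 and ANXA5, and ANXA5 and ANXA7, overlapped in range, although in each of the 3 libraries ANXA6 stood above ANXA5 and ANXA5 above ANXA7. In the control ANXA5 had stood well above both.

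As a share of the summed annexin FPKM, which does not depend on how a library is scaled, ANXA2 held 67.5%, 67.6% and 68.5% in the control libraries and 49.9%, 45.6% and 49.7% in the knockdown libraries. The share of ANXA5 went from 14.9% ± 0.347 to 12.4% ± 0.325, and ANXA1 went from 5.29% ± 0.171 to 0. ANXA6 rose in share from 3.599% ± 0.144 to 13.2% ± 0.963, ANXA7 from 3.34% ± 0.146 to 11.6% ± 0.724, ANXA11 from 2.70% ± 0.0574 to 8.89% ± 1.26 and ANXA4 from 1.85% ± 0.0735 to 5.27% ± 0.285. Together these 4 held 11.4%, 11.5% and 11.5% of the annexin sum in the control libraries and 37.6%, 41.6% and 37.4% in the knockdown libraries. No share overlapped between the groups, and each exact permutation test gave p = 0.1, also after adjustment over the 8 genes, the smallest value possible.

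**Figure D4:**
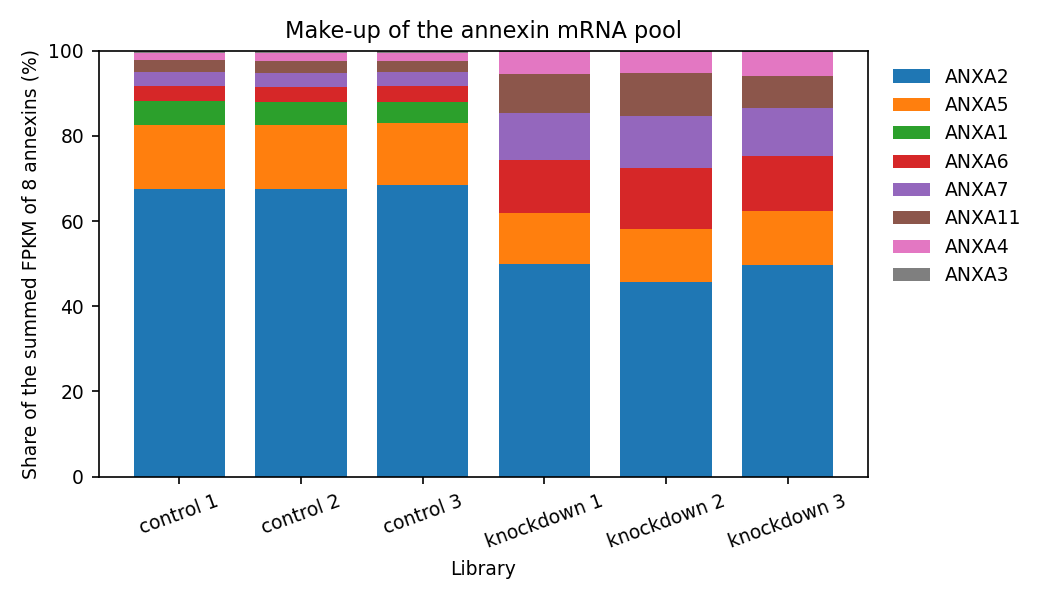
Share of the summed FPKM of the 8 annexin genes held by each gene (stacked bars, percent) in each library. ANXA2 fills 67.5% to 68.5% of the control bars and 45.6% to 49.9% of the knockdown bars, and the ANXA1 segment is missing from the knockdown.

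The remaining annexin rows of the table were low. ANXA9 stood at 0.685, 0.595 and 0.406 FPKM in the control libraries and at 0.544, 0.929 and 0.805 with the TDP-43 shRNA, with overlapping ranges. ANXA10 and ANXA8L1 were listed at 0 in the knockdown and at means of 0.0938 and 0.222 FPKM in the control. ANXA8, of which ANXA8L1 is a near-identical copy, had means of 0.0406 (knockdown) and 0.0273 FPKM (control), and ANXA13 was listed at 0 except in control libraries 1 and 2 (0.0493 and 0.360 FPKM). Among the processed pseudogenes of ANXA2, which could share reads with it, ANXA2P1 was tested and did not pass (1.66 ± 0.520 FPKM in the knockdown against 1.53 ± 0.491, log2 fold change 0.074, limma adjusted p = 0.735). ANXA2P2 was listed at 0.171 FPKM or less and ANXA2P3 at 0 in all libraries. ANXA2R, a putative annexin A2 receptor that is not an annexin, had means of 0.349 (knockdown) and 0.707 FPKM (control) with overlapping ranges.

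The RefSeq start sites (GRCh38.p14) of the 4 members that fell most are shown, with that of ANXA7 as 1 example of the 4 that fell about 2-fold, so that their upstream letters can be read side by side. Each line gives the 250 bases before the start, 5′ to 3′ on the gene's strand, with matches to TATAAA, to TGANTCA (the AP-1 motif) and to GGGCGG (the GC box), on either strand, in capitals.
ANXA1, chr9:73151615-73151864, plus strand: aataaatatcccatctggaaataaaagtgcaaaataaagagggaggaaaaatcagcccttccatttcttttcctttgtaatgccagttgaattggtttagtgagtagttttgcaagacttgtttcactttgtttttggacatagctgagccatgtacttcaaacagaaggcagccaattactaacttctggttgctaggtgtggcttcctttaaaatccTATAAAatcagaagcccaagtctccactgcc
ANXA2, chr15:60397987-60398236, minus strand: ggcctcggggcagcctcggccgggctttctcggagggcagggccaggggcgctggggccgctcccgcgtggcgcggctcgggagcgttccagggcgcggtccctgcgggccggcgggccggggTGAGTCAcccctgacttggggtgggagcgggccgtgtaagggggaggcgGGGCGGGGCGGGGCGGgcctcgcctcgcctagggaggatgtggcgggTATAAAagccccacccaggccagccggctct
ANXA3, chr4:78551520-78551769, plus strand: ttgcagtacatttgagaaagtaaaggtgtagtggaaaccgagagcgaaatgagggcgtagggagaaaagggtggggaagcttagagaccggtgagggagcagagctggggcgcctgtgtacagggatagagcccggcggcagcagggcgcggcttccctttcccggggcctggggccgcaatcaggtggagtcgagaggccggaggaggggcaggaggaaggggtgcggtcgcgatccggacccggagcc
ANXA5, chr4:121696981-121697230, minus strand: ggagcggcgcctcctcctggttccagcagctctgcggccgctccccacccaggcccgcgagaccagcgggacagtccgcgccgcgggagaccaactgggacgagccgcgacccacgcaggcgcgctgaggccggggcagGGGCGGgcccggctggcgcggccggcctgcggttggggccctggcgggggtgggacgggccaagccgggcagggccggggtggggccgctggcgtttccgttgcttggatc
ANXA7, chr10:73414059-73414308, minus strand: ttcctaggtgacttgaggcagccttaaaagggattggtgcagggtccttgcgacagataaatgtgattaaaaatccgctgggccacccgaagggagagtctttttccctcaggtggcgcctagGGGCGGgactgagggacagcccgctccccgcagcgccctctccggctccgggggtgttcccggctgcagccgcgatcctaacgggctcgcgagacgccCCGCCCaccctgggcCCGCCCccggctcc

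ANXA1 and ANXA2 both have TATAAA beginning 31 bases before the start. These letters were found in 10.7% of 35116 RefSeq windows of the same length, and among the members in 1 further window, the first of 3 ANXA11 starts (61 bases before it). The ANXA1 window is the poorest in G and C of the 12 member windows (38.4%, against a median of 58.0% for all windows and 78.0% for ANXA2, 64.0% for ANXA3, 78.8% for ANXA5 and 66.0% for ANXA7), and like ANXA3 it has no GC box, which 42.6% of windows hold. In its share of G and C, ANXA3 is close to ANXA7, and the first ANXA4 window (77.2%) is close to ANXA2 and ANXA5. The second ANXA4 window holds 71.6%, the ANXA6 windows 65.6% and 56.4%, and the ANXA11 windows at most 73.6%. Whether this share goes with the size of the fall was not tested. ANXA2 has 3 GC boxes that overlap by their end letters, ANXA5 has 1 and ANXA7 has 3. The AP-1 motif stands once, in ANXA2, 127 bases before the start, and in 6.57% of all windows. No member window holds CATTCC, the TEAD motif, which 11.9% of windows hold. CCAAT, found in 32.0% of windows, occurs in windows of ANXA1 (2 matches), ANXA6, ANXA7 and ANXA11. CANNTG, the E-box, which can overlap other motifs and is in 61.8% of windows, occurs for every member except ANXA2. These matches describe letters and not bound sites.

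Runs of 6 or more TG units, letters that TDP-43 is known to bind in RNA as UG repeats, were looked for in the longest protein-coding GENCODE v29 transcript of each gene. None of the 8 annexin transcripts holds one, and 5.18% of the 11812 tested genes with such a transcript do. Introns were not searched, so nothing follows about the unspliced RNA.

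Partners of the annexins with EF-hand calcium sites, and AHNAK, a giant scaffold bound by ANXA2 with S100A10, were mostly lower. Of 10 tested genes 7 were called lower and 1 higher, with a median log2 fold change of -0.41. Over all tested genes 35.9% were called lower and 30.5% higher. S100A10, the partner of ANXA2 in its membrane tetramer, stood at 64.3, 70.0 and 68.3 FPKM in the control libraries and at 2.14, 2.19 and 3.02 in the knockdown libraries. That is a 27.6-fold difference of the means, larger than the 9.48-fold of ANXA2 (log2 fold change -4.32, limma adjusted p = 2.34e-09). S100A11, which binds the tail of ANXA1, stood at 237, 243 and 245 FPKM in the control libraries and at 10.4, 10.6 and 10.7 in the knockdown libraries (22.9-fold, limma adjusted p = 2.14e-11). S100A6 and AHNAK had log2 fold changes of -1.17 and -0.84.

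Among the penta-EF-hand genes, whose products include partners of ANXA7 and ANXA11, PEF1 fell by 0.54 on the log2 scale. PDCD6, which encodes ALG-2, stood at 58.2 ± 3.90 FPKM against 70.0 ± 3.49 in the control, and SRI, which encodes sorcin, at 51.5 ± 5.38 against 62.1 ± 0.828. Both passed on the deposited scale (log2 fold changes -0.26 and -0.27) and neither passed with quantile normalization (limma adjusted p = 0.911 and 0.995), and SRI also lost its call with no filter (limma adjusted p = 0.0601). S100B was the member called higher (0.61) and did not pass with columns rescaled to equal sums (limma adjusted p = 0.515). S100A4 (7.90 ± 0.606 against 8.11 ± 1.96 FPKM) and GCA (3.65 ± 0.532 against 3.25 ± 0.203 FPKM) did not pass.

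**Figure D5:**
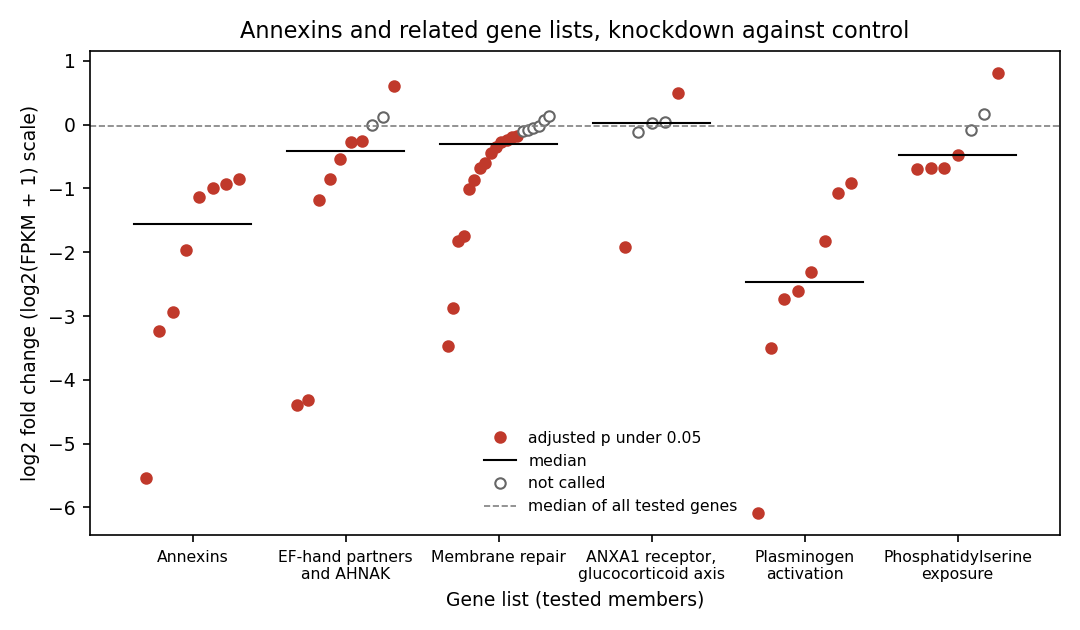
log2 fold changes on the log2(FPKM + 1) scale of the tested genes of the annexin family and of 5 related lists, with filled points at an adjusted p under 0.05, open points otherwise, a line at each list's median and a dashed line at the median of all tested genes. The annexins (median -1.55) and the plasminogen genes (-2.46) hold no point above 0.

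Genes of plasminogen activation at the cell surface, where ANXA2 and S100A10 act as docking sites, were called lower throughout, 8 of 8 tested. Their median was -2.46, and 35.9% of all tested genes were called lower. SERPINE2, a protease inhibitor, fell by 3.49 on the log2 scale. The receptor gene PLAUR stood at 3.27 ± 0.213 against 27.5 ± 1.05 FPKM and PLAT, tissue plasminogen activator, at 2.51 ± 0.583 against 20.3 ± 0.577. These 3 genes had limma adjusted p between 2.57e-09 and 1.09e-07. PLG, plasminogen itself, was listed at 0 in all 6 libraries.

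Membrane repair genes outside the family gave 14 of 20 tested called lower and 0 higher, with a median of -0.31. Over all tested genes the shares were 35.9% lower and 30.5% higher. The largest falls were in caveola genes. CAV1, the main caveolin, was listed at 9.91, 10.1 and 10.3 FPKM in the control libraries and at 0 in the 3 knockdown libraries. As for ANXA1, this exact 0 can be a failed estimate. PTRF, which encodes the caveolar coat protein cavin-1, stood at 8.67 ± 1.15 FPKM against 69.8 ± 1.17. MYOF, a ferlin that fuses membrane at wounds, had a log2 fold change of -1.82 and EHD2, an ATPase of the caveolar neck, -1.74. Calpain genes, whose proteases cut annexins and ferlins at wounds, fell less, with CAPN1, CAPN2 and CAPNS1 at -0.60, -0.87 and -0.68. Genes of the ESCRT machinery, which pinches off damaged membrane, showed small differences. Among the 6 list members that did not pass were CHMP2A (66.1 ± 2.18 against 67.5 ± 2.93 FPKM), VPS4A (32.7 ± 2.21 against 31.0 ± 0.397 FPKM) and TSG101 (44.0 ± 2.57 against 45.7 ± 1.89 FPKM). With columns rescaled to equal sums all 20 tested genes of the list were called lower. CHMP1A, CHMP3, CHMP4B, VPS4B and PDCD6IP passed with log2 fold changes between -0.44 and -0.17 and did not pass with quantile normalization. CHMP1A also lost its call without knockdown library 1 or control library 1 (limma adjusted p = 0.059 and 0.0708). CHMP2B passed too (log2 fold change -0.35), and of 19 alternatives it lost its call only with no filter (limma adjusted p = 0.0702).

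Genes of the ANXA1 receptor, glucocorticoid and phospholipase A2 axis were mostly unexpressed, with 5 of 11 tested. NR3C1, the glucocorticoid receptor, had 10.4 ± 0.278 FPKM with the control shRNA and 2.04 ± 0.286 with the TDP-43 shRNA (log2 fold change -1.92, limma adjusted p = 1.31e-07). Its target genes TSC22D3 (9.18 ± 1.02 against 8.92 ± 0.833 FPKM) and FKBP5 (8.85 ± 0.804 against 8.69 ± 0.408 FPKM) did not pass. The phospholipase gene PLA2G6 was called higher (0.49) and did not pass with columns rescaled to equal sums (limma adjusted p = 0.947). TRPM7, a channel kinase that phosphorylates ANXA1, stood at 10.7 ± 0.652 against 11.6 ± 0.123 FPKM and did not pass. The formyl peptide receptor genes FPR1, FPR2 and FPR3 had control means of 0, 0.0120 and 0.239 FPKM.

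Genes that govern phosphatidylserine exposure, the lipid that ANXA5 binds, gave 4 of 7 tested called lower and 1 higher, with a median of -0.48. Over all tested genes the shares were 35.9% lower and 30.5% higher. The scramblase gene ANO6 stood at 22.6 ± 2.11 FPKM against 36.9 ± 0.738. The flippase genes ATP11A and ATP11B had log2 fold changes of -0.68 and -0.69, and their shared subunit TMEM30A -0.48. ATP8A1, a neuronal flippase, stood at 8.93 ± 0.854 against 4.64 ± 0.123 FPKM and did not pass with columns rescaled to equal sums (limma adjusted p = 0.714). PLSCR3 (11.3 ± 0.626 against 12.03 ± 0.564 FPKM) did not pass.

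Of the 16 nearest tested genes on either side of the members 9 were called lower and 3 higher, with a median log2 fold change of -0.33, where 35.9% of all tested genes were called lower and 30.5% higher. The neighbours of ANXA1, ZFAND5 and RORB-AS1, had log2 fold changes of -0.11 and 0.85, those of ANXA2, BNIP2 and ICE2, -0.40 and 0.21, and those of ANXA7, MRPS16 and MSS51, 0.015 and 0.091. ZFAND5, MRPS16 and MSS51 did not pass. The largest falls among neighbours were in TMEM155, next to ANXA5, and in FRAS1, next to ANXA3. TMEM155 was listed at 0 in the knockdown, which can be a failed estimate, and at a mean of 3.03 FPKM in the control. FRAS1, which encodes a basement membrane protein, stood at 7.59 ± 0.545 against 19.5 ± 0.205 FPKM. All 3 genes called higher lost that call under other settings. With columns rescaled to equal sums ICE2 and the ANXA4 neighbour GMCL1 were called lower (limma adjusted p = 6.05e-06 and 1.11e-06), and RORB-AS1 did not pass. RORB-AS1 also lost its call with no filter (limma adjusted p = 0.056). ICE2 and GMCL1 also lost their calls without knockdown library 1 or 3 or any 1 of the control libraries, and of 19 alternatives 12 ended or reversed the call of ICE2 and 8 that of GMCL1.

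The genes most like each member over the 6 libraries were found among tested genes of similar mean level, by the Euclidean distance between log2(FPKM + 1) values centred on each gene's mean. For ANXA2 they were SCG2, SPARC and GNG11 (distances 0.35, 0.493 and 0.781). For ANXA5 they were ADAM19, PRSS23 and KRT18 (0.111, 0.145 and 0.173), and for ANXA1 SULT1E1, CTGF and NT5E (0.11, 0.172 and 0.281). For ANXA3 they were FOS, FAM111A and TMEM155 (0.167, 0.22 and 0.264). The 4 members with the smaller falls had nearest genes at 0.0944 to 0.118, TBC1D1 for ANXA4, STT3A for ANXA6, MID1 for ANXA7 and SLC18A3 for ANXA11. With 2 groups of libraries such likeness mostly reflects the level and the size of the group difference.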

How the data were processed

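Poly(A) RNA was sequenced with directional libraries, as the labels' protocols state. The authors deposited FPKM per gene and library, and the submitters' processing notes name the build hg38 and the tools Cuffdiff 2.2.1, TopHat2 2.1.0 and SAMtools without roles. The annotation, and whether counting used strand, is not given in the sources used here. Groups and library numbers came from the sample titles. No pair of libraries shared more than 1 identical value above 0.

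Genes averaging at least 1 FPKM over the 6 libraries were compared on log2(FPKM + 1) with limma 3.58.1 (R 4.3.3, trend on intensity), and p-values are two-sided. On simulated data of 13434 genes for this comparison limma found 50% of the genes given a 1.25-fold change, 86% for 1.5-fold and 100% for 2-fold and 4-fold, and 4 of 172 calls were false. Few genes changed in the simulation, unlike in the data. The changes were decreases on the log2(FPKM + 1) scale, given only to genes with a control mean above 2 on it. The rates therefore do not cover lower genes. Exact permutation tests were two-sided. Python 3.11.15 was used for the remaining steps.

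The members and lists were chosen with earlier results of these data known. Named are TARDBP, all annexin rows, up to 4 called genes per list with the largest change, the nearest tested neighbours (GENCODE v29, 94.0% of tested genes matched by symbol) and, for each member, the nearest genes by pattern. Some genes that this rule names are not reported here. Other list members were named after their values were seen. All 8 members matched a RefSeq promoter window. Introns and proteins were not analysed here. Alternatives were other pseudocounts, filters, scalings and limma settings, a replicate block, and leaving out each library.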

Additional observations from a re-analysis of the deposited data

How the results depend on the processing

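All 8 annexin genes, or the 7 left under stricter filters, were called lower under each of the 19 alternatives, with ANXA3 not tested where at least 5 FPKM was required and ANXA1 not tested without genes at an exact 0. The highest limma adjusted p of any member was 9.59e-04, for ANXA11 with no filter. The log2 fold change of ANXA2 ran from -4.12 to -3.09 and that of ANXA6 from -1.72 to -0.69. Rescaling columns to equal sums shifted the median over all genes by -0.80, and 522 genes were called higher and 11689 lower, against 4092 and 4817 on the deposited scale. With quantile normalization it shifted by 0.11 and 58.8% of calls were higher, against 45.9%.

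The main moves of the counts on the partner lists are given here, and their cause was not tested. With quantile normalization the membrane repair list had 9 genes called lower and 3 higher, and the phosphatidylserine list 2 higher. The EF-hand list had 5 called lower there, against 7 on the deposited scale. With columns rescaled to equal sums the EF-hand, ANXA1 axis and phosphatidylserine lists had 0 called higher, and the ANXA1 axis 4 lower. All 20 tested membrane repair genes were called lower with that scaling, against 14 on the deposited scale. So were 9 of 10 tested EF-hand genes (7 on the deposited scale) and 6 of 7 tested phosphatidylserine genes (4 on the deposited scale). At a minimum mean of 5 FPKM, which tests fewer genes, the EF-hand and ANXA1 axis lists had 0 called higher. The ANXA1 axis had 3 called lower with a minimum mean of 0.1 FPKM or no filter, and 2 with equal sums taken without the 6 small RNAs. Leaving out single libraries gave 1 to 2 phosphatidylserine genes called higher, with 2 without knockdown library 2. The shares of the annexin sum kept their direction when taken over every annexin row and without each library in turn, the alternatives for which they were computed.

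With a replicate block all 8 annexin genes were again called lower (median -1.55), and the neighbours ICE2 and GMCL1 lost their calls (limma adjusted p = 0.0647 and 0.105). Same-numbered libraries did not deviate together (correlations -0.018, -0.185 and -0.091). With 3 libraries per group this cannot show whether they were cultured or processed as pairs. Read numbers are unknown, so the precision of ANXA3 in the knockdown cannot be stated beyond its spread.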
